A study of Homo sapiens with 12 samples.

Results

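The globin genes encode the chains of hemoglobin, and 10 of them were taken from the 25369 genes of the count files by their symbols. The 5 beta-like genes were HBB, HBD, HBG1, HBG2 and HBE1, and the 5 alpha-like genes were HBA1, HBA2, HBZ, HBQ1 and HBM. The group was picked because HBD was much lower in the WT than in the pTRE samples, so the values of that contrast are given below as a description, without a test. U2OS is a human osteosarcoma cell line, and 4 stable Tet-On lines derived from it gave 12 samples, with 3 biological replicates a line. The lines carried the pTRE2-hyg vector either empty (pTRE, the control) or with HA-tagged E2F1, a transcription factor of the cell cycle, as wild type (WT), or with arginines changed to lysine, as R109K or as R111/113K (KK). Cells of all 4 lines, control included, were grown with G418 and hygromycin B and given 1 ug/ml doxycycline for 24 hours, and polyadenylated RNA was sequenced. No sample without doxycycline was analysed here, and each construct was represented by 1 line, so a change caused by the construct and a difference between the lines themselves cannot be told apart.

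Hemoglobin pairs alpha-like with beta-like chains around heme, an iron porphyrin that binds oxygen. The genes of each kind lie in a cluster, in about the order in which embryonic, fetal and adult red cell precursors use them, and distant enhancers such as the beta-globin locus control region drive them in those cells. HBE1 and HBZ are embryonic, HBG1 and HBG2 are fetal, HBB, HBA1 and HBA2 supply the main adult hemoglobin, and HBD gives the beta-like chain of the minor adult form, HbA2. Outside the red cell lineage these genes are usually close to silent. On GRCh37, the build to which the reads were aligned (hg19), the beta-like genes lie on the minus strand of chromosome 11 and the alpha-like genes on the plus strand of chromosome 16. The reference transcript of HBD (ENSG00000223609) covers 5254068 to 5255713 of chromosome 11 in 3 exons, and that of HBE1 (ENSG00000213931), 35.5 kb further upstream, covers 5289575 to 5291175.

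HBD carried the largest difference between the lines, so the 250 bases before its start are given here. They were read from the RefSeq promoter table of GRCh38.p14, chr11:5234484-5234733 on the minus strand, and are written 5′ to 3′. Of the 10 genes, 2, HBD and HBM, had an entry in that table. Capitals mark the letters CCAAT (153 to 149 bases upstream of the start), TTATC, which is GATAA on the other strand (78 to 74 bases), and ATAAAA (31 to 26 bases).

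HBD: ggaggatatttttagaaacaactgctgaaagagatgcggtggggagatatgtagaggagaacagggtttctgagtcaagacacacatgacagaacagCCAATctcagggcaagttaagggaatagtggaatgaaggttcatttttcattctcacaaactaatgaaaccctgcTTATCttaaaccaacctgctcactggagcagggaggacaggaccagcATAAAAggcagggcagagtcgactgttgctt

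The same letters on either strand were found in 32.0% (CCAAT), 20.4% (GATAA) and 14.8% (ATAAAA) of the 35116 windows of that length in the table. CACCC, present in 54.7% of the windows, was not in the HBD window. None of the letters TTTCCCGC, TTTCGCGC, TTTGCCGC and TTTGGCGC, forms of the E2F site, was in it on either strand, and 2.79% of all windows held at least 1 of them. These matches are descriptions of letters and do not show binding.

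Between 11500537 and 31040903 reads per sample were counted on genes. WT replicate 2 stood apart with the lowest total and 58.7% of its reads outside genes, against 23.6% to 29.6% in the other samples, so the WT values of HBD and HBE1 are also given without it. Levels are given as CPM, the reads on a gene scaled to 1000000 reads on genes, with library sizes adjusted by TMM, a method that balances the samples on the bulk of their genes. In 1 edgeR model of all 12 samples, 16625 genes passed a filter on low counts and were tested. A gene was called changed at a Benjamini-Hochberg adjusted p under 0.01 and over 2-fold. E2F1 itself averaged 91.2 CPM ± 9.43 in pTRE (SD, n = 3). Its mean was 1811 ± 445 in WT, 1158 ± 196 in R109K and 1316 ± 187 in KK, with every E2F1 sample above every pTRE sample. Of the 10 globin genes, 2 passed the filter, HBD and HBE1.

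HBD was the globin gene with the most reads in pTRE, and it was lower in every sample of all 3 E2F1 lines. The pTRE samples had 296, 269 and 383 reads on HBD, or 12.2, 10.2 and 14.1 CPM. WT had 42, 7 and 38 reads (1.50, 0.562 and 1.37 CPM), R109K had 9, 54 and 29 (0.292, 1.96 and 1.19 CPM), and KK had 15, 36 and 28 (0.519, 1.73 and 1.11 CPM). No sample of an E2F1 line came near the pTRE samples, and the 3 E2F1 lines overlapped one another. The pTRE mean was 12.2 ± 1.92 CPM (SD, n = 3), and the E2F1 lines stood at 1.14 ± 0.507 (WT), 1.15 ± 0.836 (R109K) and 1.12 ± 0.605 (KK).

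The log2 fold change of HBD was -3.32 in WT (SE 0.47), 9.96-fold lower than in pTRE, and it was the 7th lowest of the 16625 genes tested. This is the contrast that chose the gene, and no p-value is given for it. Without WT replicate 2 it was -3.08, and the WT mean was 1.43 CPM. In KK HBD fell by 3.48 on the log2 scale (SE 0.47, edgeR adjusted p = 4.18e-05) and in R109K it fell by 3.42 (SE 0.47, adjusted p = 6.76e-05). KK and R109K were compared with the same pTRE samples by which HBD had been chosen, so these p-values are not independent of that choice. The comparison of R109K with KK used none of those samples. There HBD differed by 0.06 on the log2 scale (95% interval -1.05 to 1.16, adjusted p = 0.987), so no difference was detected, and the interval still holds changes of 2-fold either way. Against WT, the difference was -0.16 in KK (95% interval -1.28 to 0.95, adjusted p = 0.917) and -0.11 in R109K (-1.20 to 0.99, adjusted p = 0.920). The WT samples also took part in the choice of HBD, so nothing is read from these comparisons with WT.

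**Figure D1:**
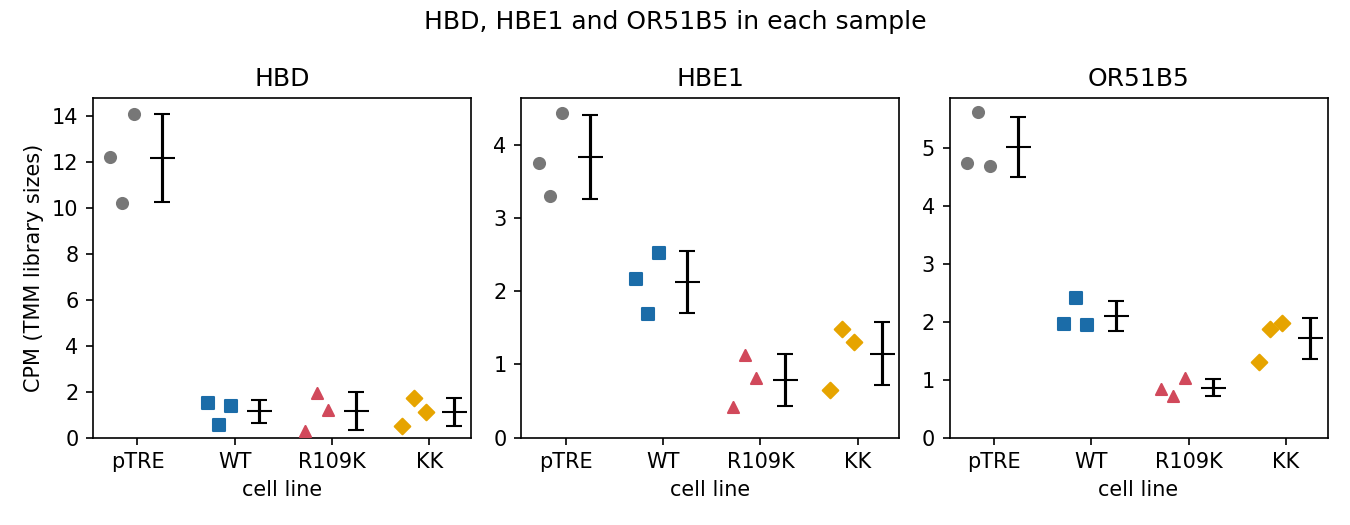
CPM of HBD, HBE1 and the neighbouring olfactory receptor gene OR51B5 in each of the 12 samples, by cell line. Points are samples, and the bars beside them are the mean and SD of 3 replicates. HBD was near 1 CPM in all 3 E2F1 lines, while the means of HBE1 and OR51B5 were lowest in R109K.

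HBE1, the embryonic beta-like gene, was also lower in the E2F1 lines, but to a different extent in each. It had 91, 87 and 121 reads in pTRE (3.76, 3.31 and 4.44 CPM) and 61, 21 and 70 in WT (2.17, 1.69 and 2.53 CPM). R109K had 13, 31 and 20 reads (0.421, 1.13 and 0.819 CPM) and KK had 19, 31 and 33 (0.657, 1.49 and 1.30 CPM). All WT samples lay below all pTRE samples and above all R109K and KK samples, while R109K and KK overlapped. Of all tested genes, 5.16% had every KK sample below every WT sample, and 14% had every R109K sample there. The means were 3.84 ± 0.573 CPM in pTRE, 2.13 ± 0.423 in WT, 0.789 ± 0.353 in R109K and 1.15 ± 0.436 in KK (SD, n = 3).

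HBE1 fell by 1.75 on the log2 scale in KK (SE 0.34, adjusted p = 9.30e-04) and by 2.29 in R109K (SE 0.35, adjusted p = 2.01e-04), or 3.37-fold and 4.88-fold. Where the fold change itself was tested against 2-fold (glmTreat), these calls were lost (adjusted p = 0.0973 and 0.0115), while those of HBD were kept. In WT its log2 fold change was -0.83 (SE 0.33), under the 2-fold threshold, and -0.71 without WT replicate 2. R109K against WT differed by -1.46 (SE 0.36, 95% interval -2.23 to -0.69), and with an adjusted p of 0.0394 it was not called at 0.01. It was called by DESeq2 (adjusted p = 0.00645), and without WT replicate 2 it was -1.59 (edgeR adjusted p = 0.0304). KK against WT differed by -0.93 (adjusted p = 0.574) and R109K against KK by -0.53 (95% interval -1.33 to 0.26, adjusted p = 0.647), so neither was called.

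In WT, the contrast that chose the group, HBD was past both thresholds and HBE1 was not, beside 3.93% of all tested genes called lower, and nothing is read from this count. In KK both globin genes tested were called lower, against 3.90% of all genes, and in R109K both, against 2.56%. The pair is too small, and was chosen on one of these contrasts, for the counts to say more than the values of each gene. Between the E2F1 lines, edgeR called neither gene in KK against WT (0.00602% of all genes called), R109K against WT (0.343%) or R109K against KK (0.0902%). At an unadjusted p under 0.05 (edgeR), HBE1 passed in both comparisons with WT and neither globin gene passed in R109K against KK. Of all 16625 tested genes, 1415 passed in KK against WT, 3714 in R109K against WT and 2062 in R109K against KK. DESeq2 called 1 globin gene, HBE1 in R109K against WT, where it called 134 genes in all. When every sample of a line is required to lie below every pTRE sample, both genes met this in all 3 lines, as did 26.3% of all tested genes in WT, 24.5% in KK and 22.9% in R109K.

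Set against transcript length, HBD stood above HBE1 in pTRE and below it in WT, the contrast that chose HBD. In pTRE HBD stood at 19.6 ± 3.10 CPM per kb of its 620-base transcript and HBE1 at 6.16 ± 0.920 per kb of its 623 bases. In WT the level was 1.84 ± 0.818 CPM per kb for HBD and 3.42 ± 0.679 for HBE1. The levels per kb of HBD and HBE1 were 1.85 ± 1.35 and 1.27 ± 0.567 in R109K, and 1.80 ± 0.976 and 1.85 ± 0.700 in KK, within the spread of the replicates in each of these lines.

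The ratio of HBD to HBE1 reads, which does not depend on library size, was 3.25, 3.09 and 3.17 in the pTRE samples. It was 0.689, 0.333 and 0.543 in WT, 0.692, 1.74 and 1.45 in R109K, and 0.789, 1.16 and 0.848 in KK. The pTRE ratios were closely grouped and above all others, the WT ratios were below all others, by a narrow margin from the lowest R109K sample, and R109K and KK overlapped. In exact two-sided permutation tests of the log2 ratio, R109K and KK each gave p = 0.1 against pTRE and p = 0.1 against WT, the smallest p that 3 against 3 samples allow, so this design cannot pass 0.05. The pTRE and WT values of HBD chose the gene, so these 4 tests are not independent of that choice, and nothing is read from them. R109K against KK used neither group, and there the exact permutation test gave p = 0.4. Adjusted over the 5 tests, the p-values became 0.125 and 0.4.

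**Figure D2:**
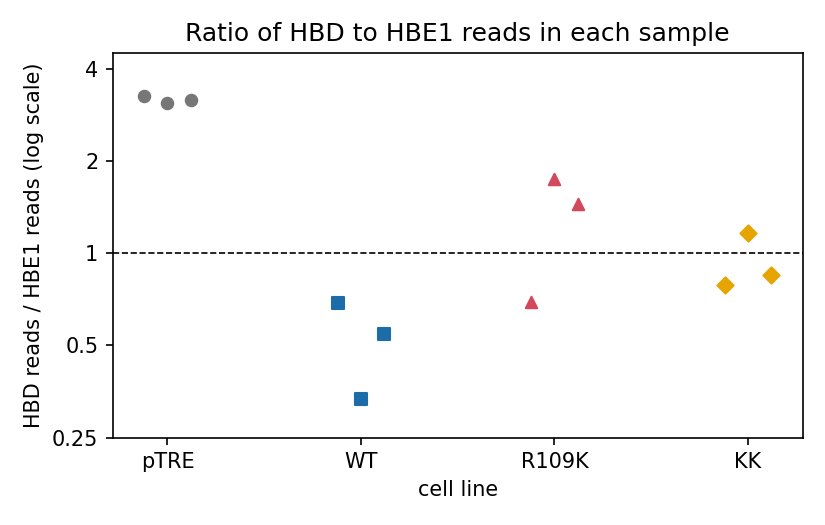
HBD reads divided by HBE1 reads in each sample, on a log scale, by cell line. Each point is a sample, and the dashed line marks equal reads. The pTRE samples lie between 3.09 and 3.25 and the WT samples between 0.333 and 0.689, with R109K and KK between these groups.

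HBD and HBE1 together held 97.1% to 98.3% of the reads on the 10 globin genes in pTRE. Of all globin reads, HBD took 75.1% (95% Wilson interval 70.6 to 79.1) in pTRE replicate 1 and 17.1% (8.53 to 31.3) in WT replicate 2, the lowest share of any sample. In the other WT samples the HBD share was 36.5% (28.3 to 45.6) and 31.9% (24.2 to 40.8). It lay between 32.1% and 58.1% in R109K and between 31.3% and 49.3% in KK. These intervals cover counting error only, since reads without molecular identifiers are not independent molecules.

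The adult gene HBB and the fetal genes HBG1 and HBG2, which lie on either side of HBD, were too low to show whether they shared the fall. HBB had 12 reads in all, 1 and 6 in pTRE replicates 1 and 3 and 5 in WT replicate 3, with 0 in the other samples, R109K and KK included. HBG1 had 2 reads, all in pTRE replicate 3. HBG2 had 6, from pTRE (3), WT (2) and KK (1). A sample with 0 reads allows up to 3, so a fall from these levels was not detectable at this depth, and no fold change is given.

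The alpha-like genes were as low. HBQ1, the theta-globin gene, had at least 2 reads in every sample and 58 in all. There were 13 in pTRE, 18 in WT, 13 in R109K and 14 in KK. Of the WT reads, 9 were in WT replicate 2, the sample with the largest share of reads outside genes. The main adult alpha gene HBA2 had 1 read in pTRE, 8 in WT, 6 in R109K and 11 in KK, 8 of which were in KK replicate 1. HBA1 had 5 reads and HBM 4. The embryonic gene HBZ had 0 reads in all 12 samples. In total the 8 genes that were not tested had 113 reads, with 9 at most for 1 gene in a sample, and 60 of their 96 values were 0. With no filter on low counts, none of the 8 was called in any comparison outside the one that chose HBD.

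**Figure D3:**
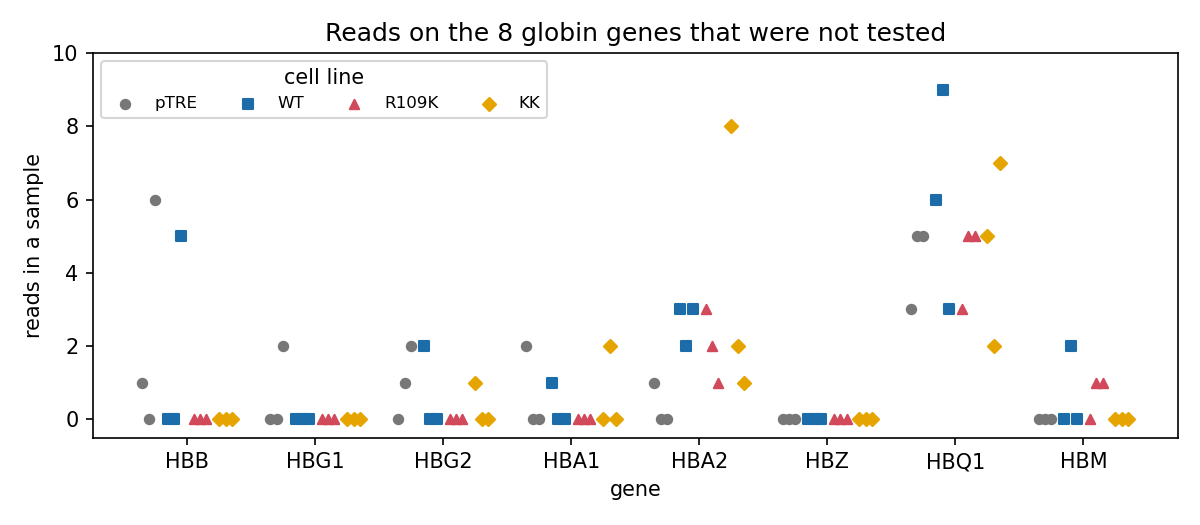
Reads in each sample on the 8 globin genes that did not pass the filter on low counts, by gene and cell line. Each point is a sample. HBQ1 and HBA2 had reads in most samples, HBZ had 0 in all, and the highest value was 9, for HBQ1 in a WT sample.

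Globin genes are close copies of one another, and reads that match several places alike were not counted on a gene. The 441 coding bases of HBD and HBB were 93.0% identical, yet 17 of the 571 stretches of 50 bases in the HBD transcript were also found in another globin transcript, which leaves 97.0% that were not. HBE1 shared 1 of 574 stretches. HBA1 and HBA2 had identical coding bases and shared 431 of 528 and 527 stretches, and HBG1 and HBG2 were 99.5% identical and shared 364 of 538 and 537. The counts of these 4 genes therefore come from the small part of each transcript that is not shared, and how reads were divided within each pair is uncertain.

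Around the beta-like cluster, within 500 kb, 48 other genes were in the files, most of them olfactory receptor genes, and 6 of them had enough reads to be tested. One more gene there and 1 at the alpha-like cluster were left out because their symbols occur at several loci. Of the 6 tested neighbours, those nearest to the globin genes were OR51B4 and OR51B5. These are olfactory receptor genes on the same strand, 67.46 and 109.04 kb upstream of the HBD start. OR51B5 had 115, 148 and 128 reads in pTRE, 55, 30 and 54 in WT, 26, 20 and 25 in R109K and 38, 39 and 50 in KK. In CPM every E2F1 sample of OR51B5 was below every pTRE sample, as with HBE1. The R109K samples of OR51B5 were below those of every other line, which was not so for HBE1, where R109K and KK overlapped. Every R109K sample was below every KK sample for 11.4% of all tested genes.

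OR51B5 averaged 5.03 ± 0.519 CPM in pTRE, 2.11 ± 0.262 in WT, 0.864 ± 0.150 in R109K and 1.72 ± 0.355 in KK (SD, n = 3). It fell by 1.55 on the log2 scale in KK (SE 0.23, adjusted p = 8.28e-05). In R109K it fell by 2.54 (SE 0.24, adjusted p = 2.39e-06), and in WT its log2 fold change was -1.27 (SE 0.23). R109K against WT differed by -1.27 (adjusted p = 0.0143, not called). OR51B4, with 3 to 31 reads per sample, fell by 1.79 in R109K (SE 0.43, adjusted p = 0.00561), a call lost with DESeq2 (adjusted p = 0.0106) and without R109K replicate 1 or 2 or any of the pTRE replicates (adjusted p from 0.0123 to 0.0392). In KK its log2 fold change was -1.43 (adjusted p = 0.0150, not called) and in WT it was -1.68. OR51B4 had 18 to 31 reads in the pTRE samples, against 3 to 9 in WT, 3 to 10 in R109K and 6 to 11 in KK. It passed the filter on low counts only through pTRE, the group where it was high, so nothing is read from its fall.

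In the GENCODE annotation of GRCh37 the genes HBE1, HBG2 and OR51B5 are joined by long transcripts. A start 271 kb upstream of HBD, at base 5526882, is used within 200 bases by 2 of the 3 HBE1 transcripts, 4 of the 5 OR51B5 transcripts and 1 of the 3 HBG2 transcripts, and by none of HBD, HBG1 or HBB. Exons of OR51B5 overlap 2 exons of HBE1 and 1 of HBG2 on the same strand. Counts per gene do not tell which start a read came from, and the annotation that the authors counted on is not given in the sources used here. HBD has a long transcript of its own, which overlaps the pseudogene HBBP1, and HBBP1 had 0 reads in all samples.

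Further away, TRIM6, a tripartite motif gene on the other strand 362 kb from HBD, fell by 1.28 in KK (SE 0.14, adjusted p = 3.59e-06). In R109K its log2 fold change was -0.90 (SE 0.13, adjusted p = 1.37e-04), under 2-fold, and in WT it was -1.08. UBQLNL, TRIM5 and TRIM22 were not called in any of the 3 lines, with log2 fold changes from -0.73 (UBQLNL in KK) to 0.23 (TRIM22 in R109K). Of the 6 tested neighbours, 3 were called lower in WT, 2 in KK and 2 in R109K, where 3.93%, 3.90% and 2.56% of all tested genes were called lower. These counts in WT and R109K include OR51B4, which was tested only because of its pTRE level. None of the 6 was called higher by edgeR or DESeq2, or was higher at an unadjusted p under 0.05 (edgeR). At that unadjusted p, 5 were lower in WT, 4 in KK and 4 in R109K, as were 23.6%, 22.2% and 18.5% of all tested genes. DESeq2 called 2, 2 and 1 of the 6 neighbours lower. Their median log2 fold change was -0.84 in WT, -1.003 in KK and -0.62 in R109K, where the medians of all tested genes were 0.00215, -0.00911 and -0.000736. The 42 neighbours that were not tested had 377 reads in all, 49 at most for 1 gene over the 12 samples.

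**Figure D4:**
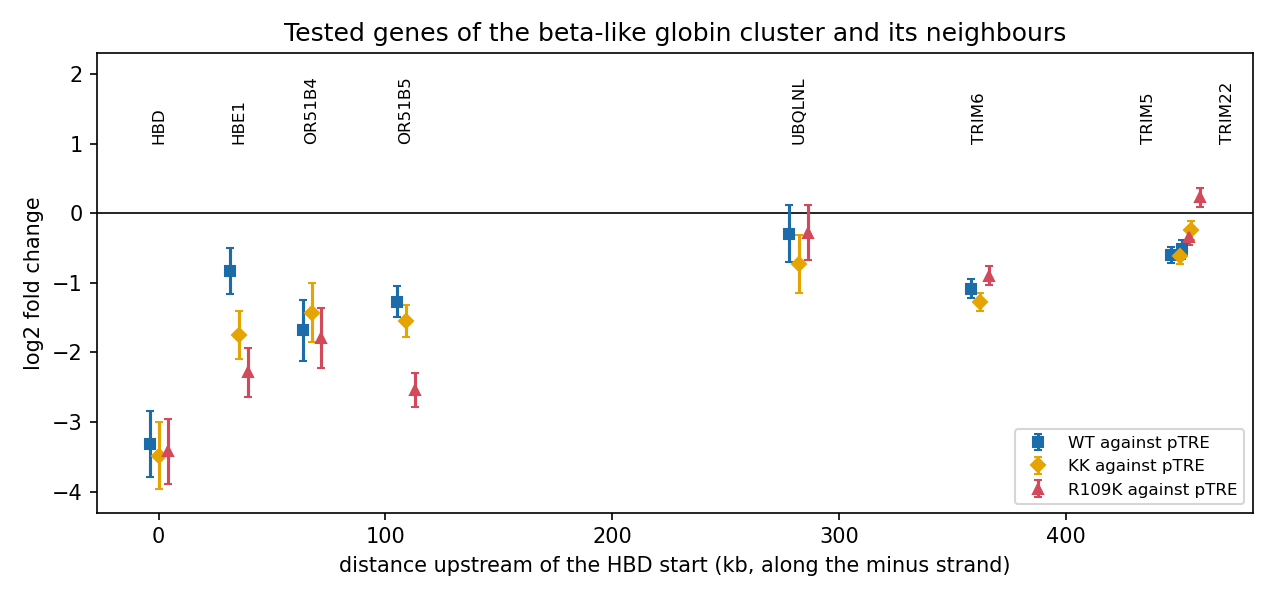
Log2 fold change against pTRE, with its standard error, of the 8 tested genes of the beta-like cluster and its surroundings, by the distance of their start from that of HBD in kb. Symbols are the 3 E2F1 lines, offset sideways for clarity. HBD is lowest in each line, and TRIM5 and TRIM22 lie within 1 log2 unit of 0.

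The alpha-like cluster lies among genes that most cells use, and 27 of its 28 neighbours in the files were tested. None was called lower in any line by edgeR or DESeq2, and at an unadjusted p under 0.05 the lower genes numbered 5 in WT, 4 in KK and 1 in R109K, against 23.6%, 22.2% and 18.5% of all tested genes. By edgeR 5 were called higher in WT, 2 in KK and 1 in R109K, where 7.89%, 7.01% and 4.64% of all tested genes were called higher. PDIA2, a protein disulfide isomerase gene, was called in each line, with log2 fold changes of 3.82 in WT (SE 0.43), 3.59 in KK (SE 0.43, adjusted p = 1.21e-05) and 2.83 in R109K (SE 0.44, adjusted p = 2.01e-04). The median over the neighbours was 0.10 in WT, 0.15 in KK and 0.09 in R109K.

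Other members of the wider globin family were low as well. Myoglobin (MB), the oxygen store of muscle, averaged 1.05 ± 0.374 CPM in pTRE, 0.254 ± 0.147 in WT, 0.321 ± 0.0914 in R109K and 0.122 ± 0.149 in KK. MB fell by 3.21 in KK (SE 0.68, adjusted p = 0.00166), a call lost without pTRE replicate 3 or KK replicate 3 (adjusted p = 0.0111 and 0.0125), and in R109K its log2 fold change was -1.72 (adjusted p = 0.0342, not called). Cytoglobin (CYGB) was not called in any line, with log2 fold changes of -1.26 in WT, -1.44 in KK and -0.80 in R109K. It averaged 0.647 CPM in pTRE, 0.242 in WT, 0.376 in R109K and 0.226 in KK. MB and CYGB were highest in pTRE and very low in the E2F1 lines. Their passing of the filter on low counts leaned on pTRE, so nothing is read from their falls. Neuroglobin (NGB) had 2 reads and ADGB 8 over the 12 samples.

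The genes most like HBD over the 12 samples were ranked by the root mean square difference of their log2 CPM, each centred on its own mean. The 5 closest were MMP7, a matrix metalloproteinase (0.67), ACKR3, an atypical chemokine receptor (0.76), ALPP, placental alkaline phosphatase (0.78), BST2, tetherin (0.79), and ZNF467, a zinc finger gene (0.81). MMP7 averaged 0.997 ± 0.175 CPM in pTRE and between 0.147 and 0.178 in the E2F1 lines. ALPP varied between the pTRE samples, with a mean of 5.76 ± 3.53 CPM there and between 0.479 and 0.973 in the E2F1 lines. BST2 averaged 23.1 CPM in pTRE and between 1.67 and 4.63 in the E2F1 lines. ZNF467 averaged 17.3 CPM in pTRE and between 2.83 and 3.33 in the E2F1 lines. Among the 16625 tested genes, HBE1 ranked 57th on this measure (0.99) and OR51B5 ranked 139th (1.11). The measure depends on the size of the fall and uses the pTRE and WT values that chose HBD, so nothing is read from these ranks.

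Among 34 regulators of globin genes, most of them transcription factors and their partners that act in red cell precursors or in the switch from fetal to adult globin, 31 were tested. The list also held LIN28B, IGF2BP1, IGF2BP3 and EIF2AK1, which are not transcription factors, and it mixes activators with repressors of globin genes. None was called lower in any of the 3 lines by edgeR or DESeq2, although 5 in WT, 6 in KK and 5 in R109K were lower at an unadjusted p under 0.05, as were 23.6%, 22.2% and 18.5% of all tested genes. By edgeR 7 were called higher in WT, 5 in KK and 4 in R109K, against 7.89%, 7.01% and 4.64% of all tested genes, and the median of the list was 0.13, 0.09 and 0.08. IKZF1 (Ikaros, a lymphoid and erythroid factor) averaged 1.02 ± 0.130 CPM in pTRE, 25.7 ± 7.12 in WT, 10.5 ± 2.24 in R109K and 23.4 ± 3.90 in KK. IKZF1 rose by 4.52 in KK (SE 0.26, adjusted p = 1.22e-08) and by 3.36 in R109K (SE 0.26, adjusted p = 3.64e-07). R109K was lower than WT by a log2 difference of -1.28 (SE 0.21, adjusted p = 0.00521), a call lost without WT replicate 1 or any of the R109K replicates (adjusted p from 0.0117 to 0.0440).

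MYB, a proto-oncogene of blood progenitors, rose by 2.90 in KK (SE 0.21, adjusted p = 8.96e-08) and by 2.19 in R109K (SE 0.21, adjusted p = 2.37e-06), with a value of 3.21 in WT. LMO2, a bridge protein of the erythroid transcription factor complex, rose by 2.60 in KK (SE 0.20, adjusted p = 1.31e-07) and 2.02 in R109K (SE 0.20, adjusted p = 3.24e-06), and its value in WT was 2.49. TAL1, a factor of the same complex, rose by 1.22 in KK (SE 0.17, adjusted p = 5.44e-05) and 1.11 in R109K (SE 0.17, adjusted p = 1.96e-04), and its value in WT was 1.23. Without R109K replicate 1 its value in R109K was 0.98, under 2-fold. BACH1, a repressor that heme releases from DNA, had a log2 fold change of 1.30 in WT, 0.85 in KK and 0.39 in R109K, and was called in WT. Without KK replicate 2 its value in KK was 1.02, past 2-fold, and it was called. Its difference between R109K and WT was -0.90 on the log2 scale (SE 0.20, adjusted p = 0.0232).

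None of the 9 enzymes of heme synthesis was called by edgeR or by DESeq2 in any line. At an unadjusted p under 0.05, 5 passed in WT, 4 in KK and 2 in R109K, as did 49%, 45.6% and 38.6% of all tested genes, and the median log2 fold change of the list was -0.19, -0.23 and -0.14. Of 23 tested genes that move heme or iron, ABCG2, a transporter that exports porphyrins and drugs, was called higher in all 3 lines. It averaged 4.51 ± 0.206 CPM in pTRE, 110 ± 26.9 in WT, 54.9 ± 5.36 in R109K and 103 ± 15.7 in KK. ABCG2 rose by 4.52 in KK (SE 0.19, adjusted p = 1.06e-09) and by 3.60 in R109K (SE 0.18, adjusted p = 1.33e-08), and R109K was lower than WT by a log2 difference of -1.01 (adjusted p = 0.00448). That call was lost without WT replicate 1 (-0.78, adjusted p = 0.0198) or any of the R109K replicates (adjusted p from 0.0159 to 0.0429). FLVCR2, a membrane transporter of the heme exporter family, fell by 2.10 in KK (SE 0.44, adjusted p = 0.00144) and by 1.78 in R109K (SE 0.42, adjusted p = 0.00544), and the call in R109K was lost without R109K replicate 1 or 2 or any pTRE replicate (adjusted p from 0.0150 to 0.0290). STEAP3 and BLVRB, a ferrireductase and a biliverdin reductase, were called lower in WT, at -1.10 and -1.07, and not in KK or R109K, where STEAP3 stood at -0.99 and -0.91 and was called without some of the replicates.

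**Figure D5:**
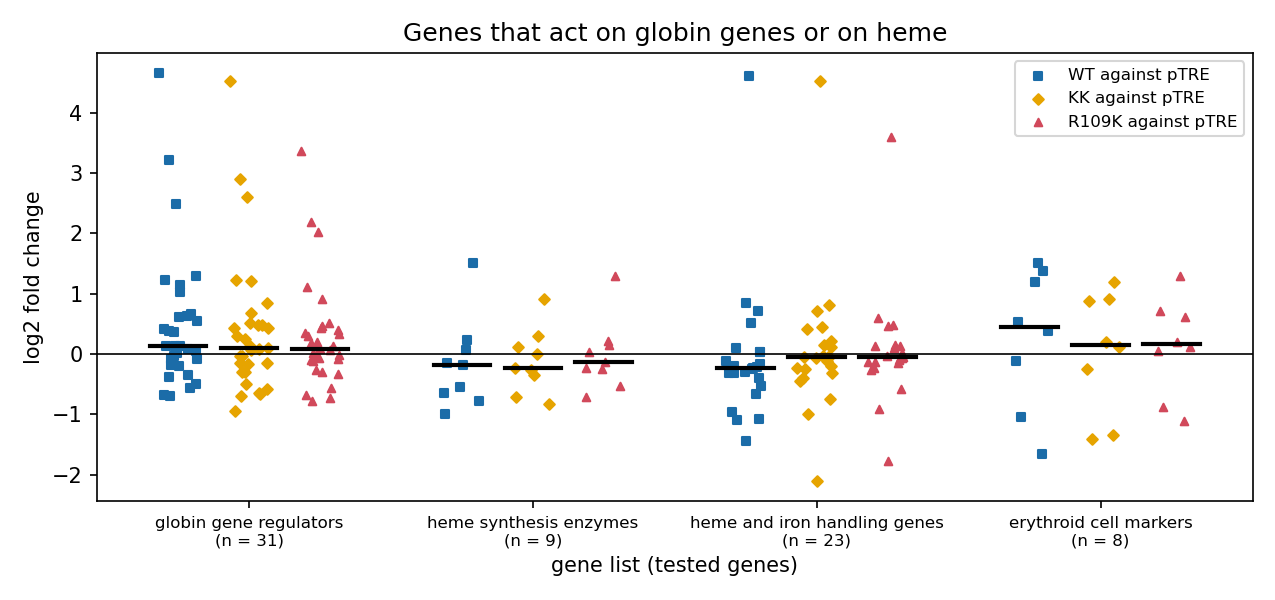
Log2 fold change against pTRE of the tested genes that regulate globin genes, make heme, or move heme and iron, and of markers of red cells, in the 3 E2F1 lines. Each point is a gene and each bar is the median of its list. The medians lie between -0.23 and 0.45, and single regulators and ABCG2 lie above 3.

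Several defining markers of red cells were at or near 0 in all lines. AHSP, the chaperone of alpha chains, had 0 reads over the 12 samples, and the erythroid factors KLF1 and GATA1 had 12 and 27, genes named here after their values were seen. Of 18 red cell markers, 8 were tested. ANK1, an anchor of the red cell skeleton also used elsewhere, was called higher in WT (1.38) and KK (1.20, SE 0.24, adjusted p = 0.00113, but 0.97 and under 2-fold without pTRE replicate 1), and EPOR, the erythropoietin receptor, was called lower in WT (-1.05) and KK (-1.40, SE 0.17, adjusted p = 1.28e-05). None was called in R109K by edgeR or DESeq2, although EPOR was called there without R109K replicate 3 (-1.05, adjusted p = 6.84e-04). At an unadjusted p under 0.05, 2 of the 8 tested markers passed in R109K, beside 38.6% of all tested genes. The summed level of the 18 markers ranged over 138 to 157 CPM for the pTRE samples, 148 to 179 for WT, 135 to 157 for R109K and 131 to 139 for KK. Most of that sum came from TRIM58, at 59.4 to 73.1 CPM as a mean over each line, and SPTB, at 55.8 to 72.7 CPM, so red cell markers were not all near 0.

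The summed levels of markers of other cell types also differed between pTRE and the E2F1 lines, but not all of these markers were called. The summed level of 8 osteosarcoma and mesenchymal markers was 6533 to 7823 CPM for the pTRE samples, 2518 to 3083 for WT, 3569 to 3580 for R109K and 2896 to 3428 for KK, led by COL1A1 (called lower in all 3 lines, -2.43 in KK). VIM and ALPL of that list were not called in any line. That of 6 epithelial markers was 786 to 975 CPM for the pTRE samples, 371 to 593 for WT, 529 to 619 for R109K and 477 to 668 for KK, with CLDN4 called lower in all 3 lines and EPCAM and KRT18 called in none. That of 8 leukocyte and endothelial markers was 23.0 to 25.9 CPM in pTRE and 36.8 to 44.04 over the E2F1 lines. CD34 was called higher in KK and R109K, and CD68 was called in none. ITGAM was called higher in WT (1.54), but its log2 fold change was -0.61 in KK and 0.03 in R109K. The part of these markers in the fall of HBD was not tested, and in bulk RNA fewer cells that express a gene and less RNA per cell cannot be told apart.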

How the data were processed

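The authors deposited whole-number counts of reads per gene symbol for each sample, with no normalization. Per the labels and methods, reads were trimmed with Trim Galore 0.4.3 and aligned to hg19 with STAR 2.5.1. The annotation and the strand setting of the counting are not given in the sources used here, so antisense and overlapping genes cannot be told apart.

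Counts were normalized by TMM and fitted in 1 edgeR 4.0.16 quasi-likelihood model of all 12 samples (R 4.3.3, filterByExpr, 16625 of 25369 genes kept). Lines of summary reads stayed out of library sizes. Biological replicates were labelled as such. The steps were tested on simulated counts. CPM uses TMM library sizes, and log2 CPM a prior count of 2. Ratios were compared by exact permutation tests (scipy 1.17.1).

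The members and gene lists were chosen with earlier results of these data known. Named genes are the 10 globin genes, E2F1, in each list and comparison at most 4 called genes with the largest fold change, and the 5 genes most like HBD. Neighbours lie within 500 kb of a cluster. Gene positions come from GENCODE v44lift37. Alternatives were DESeq2 1.42.0, RLE factors, other filters and thresholds, fits of 6 samples, a replicate block and leaving out each replicate.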

Additional observations from a re-analysis of the deposited data

Results flagged for a closer look

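The share of reads outside genes in WT replicate 2 was 58.7%, above the highest share in the pTRE controls, 28.3%.

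Differences between the E2F1 lines themselves passed an adjusted p of 0.05 (edgeR) for some of the named genes. HBE1 was lower in R109K than in WT by a log2 difference of -1.46 (adjusted p = 0.0394), lower in 3 of 3 R109K samples than in any WT sample, and OR51B5 by -1.27 (adjusted p = 0.0143), likewise in 3 of 3 samples. Every R109K sample was below every WT sample for 14% of all tested genes. IKZF1, MYB, ABCG2 and BACH1 were lower in R109K than in WT by -1.28 (adjusted p = 0.00521), -1.02 (0.0104), -1.01 (0.00448) and -0.90 (0.0232). TRIM22 and COL1A1 were higher in R109K than in WT by 0.75 (adjusted p = 0.00932) and 0.57 (adjusted p = 0.0381). Against KK, R109K was lower for IKZF1 by -1.16 (adjusted p = 0.0175) and for ABCG2 by -0.92 (adjusted p = 0.0147), and higher for BST2 by 1.48 (adjusted p = 0.0462). No difference in HBD between these lines passed that threshold.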

How the results depend on the processing

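Of 246 values recomputed for HBD, HBE1 and the counts of globin genes called, 235 kept their direction and their side of the threshold, or, where no test was made, moved by less than the spread between replicates. None of the called values changed sign. Requiring at least 10 reads in every sample removed HBD, which had 7 in WT replicate 2, and the counts of globin genes called became 0 in WT, 1 in KK and 1 in R109K. Testing the fold change against 2-fold left 1 gene, HBD, in KK and 1 in R109K, and HBE1 was then not called at -1.75 and -2.29, since that test asks for more than a difference from 0. In R109K against WT, DESeq2 and an adjusted p under 0.05 each gave 1 globin gene, HBE1, at -1.46. Over all genes, these settings called 134 and 150. Leaving out each replicate in turn moved HBD between -3.92 and -3.11 in KK and between -4.09 and -2.94 in R109K, and HBE1 between -1.98 and -1.46 in KK and between -2.64 and -1.97 in R109K, with every call kept. Uncalled differences between the E2F1 lines changed sign in some of these fits (HBD in KK against WT, from -0.60 to 0.21). In R109K against WT, HBE1 had adjusted p from 0.0304 to 0.140 without a replicate. Of 2370 values for other named genes, 2284 were kept. Tested against 2-fold, OR51B5, TRIM6, MB, TAL1, FLVCR2, MMP7, ANK1 and EPOR were no longer called in KK. Nor were OR51B4, TAL1, FLVCR2, MMP7 and ALPP in R109K, or IKZF1 and ABCG2 in R109K against WT.

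Samples with the same replicate number did not deviate together on average. The correlation of their deviations from the group means averaged 0.0436 over 18 pairs. It ranged from -0.295 to 0.470, and 5 pairs were over 0.1. An average over all pairs cannot tell whether some of the lines were paired, so a fit with a replicate block is also given. With a replicate block HBD was -3.54 in KK (adjusted p = 1.80e-04) and -3.52 in R109K (adjusted p = 2.75e-04), and HBE1 was -1.79 and -2.32. The block ended the calls of OR51B4 (adjusted p = 0.0102) and FLVCR2 (adjusted p = 0.0130) in R109K and of ABCG2 in R109K against WT (-0.99, under 2-fold), and MYB was then called in R109K against WT (-1.01, adjusted p = 0.00586). The number of genes called over all genes went from 1964 to 1895 in WT, from 1814 to 1777 in KK and from 1196 to 1169 in R109K.

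Depth limits the 8 other globin genes, with at most 9 reads in a sample.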
